A study of Mus musculus with 6 samples.

Results

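The nuclear genome encodes most subunits of respiratory complex I, and 36 of these genes, taken from a list of gene symbols, were followed in CD8+ T cells from tumours, transduced with an Elovl1-targeting guide (sgElovl1) or with a non-targeting one (sgNT). All 36 were found among the 55471 genes of the deposited tables, and all 36 passed the filter on low counts that 12546 genes passed. The cells were OT-I T cells, specific for ovalbumin, from donors made by crossing Rag2/OT-I with Rosa26-Cas9 knock-in mice. A lentiviral vector delivered the guide and the CD90.1 marker, the cells went into mice with orthotopic KPC_OVA pancreatic tumours, and CD90.1+ cells were sorted out of the primary tumour 7 days later. There were 3 sgElovl1 and 3 sgNT libraries, and Cas9, the OT-I receptor, the tumour line and anti-PD-1 treatment of the recipients were common to both groups. For sgElovl1, replicates 1 and 2 were RNA pools of 2 tumours apiece. Mice were 6 to 12 weeks old, with no age given per library, and the genotype label is the same for every library, so the groups rest on the sample titles.

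Complex I takes electrons from NADH in the mitochondrial matrix, hands them to ubiquinone and pumps protons across the inner membrane. It has a matrix arm, where flavin and iron-sulfur clusters carry the electrons, and a membrane arm, where the pumps are encoded by the mitochondrial genome. The core subunits do the chemistry, and a larger set of accessory subunits around them is needed for assembly and stability. In CD8+ T cells the respiratory chain serves energy supply and the renewal of NAD+ and aspartate during proliferation. Of the 36 genes, 6 encode core subunits of the matrix arm, 9 accessory subunits of the matrix arm, 9 and 10 accessory subunits of the proximal and distal membrane arm, and 1 the acyl carrier protein Ndufab1. The remaining gene, Ndufa4, is named as a complex I subunit and has since been placed in cytochrome c oxidase. Most of these proteins have little known activity of their own beyond holding the complex together, so a role is given below only for those with a clear one.

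The targeted gene was low in every sgElovl1 library. Elovl1, which elongates very long-chain fatty acids, stood at 81.5, 76.6 and 95.3 TMM-normalised CPM (counts scaled to a common library size) in the 3 sgElovl1 libraries, against 283, 280 and 254 CPM in those of sgNT (values per library are in replicate order throughout). The log2 fold change of sgElovl1 over sgNT was -1.69 ± 0.121 (SE, edgeR adjusted p = 8.71e-05). Whole-gene counts do not show edits, so this checks the labels only. Libraries held 21980273 to 26165380 expected counts. The 8 T cell markers summed to 8874 to 10068 CPM in sgElovl1 and 10981 to 11561 CPM in sgNT, with 1 of 8 called higher (Cd3e) and 3 called lower (Cd8a, Cd8b1 and Cd247). The 12 macrophage and monocyte markers summed to 101 to 326 CPM in sgElovl1 and 42.9 to 73.3 CPM in sgNT, and 3 of the 10 tested were called higher. B cell and fibroblast markers were at or near 0 in all 6 libraries. The 7 tumour epithelium markers summed to 315 CPM in sgElovl1 replicate 3 and 980 CPM in sgNT replicate 3, and to 35.2 to 53.6 CPM in the other 4 libraries. The second principal component, with 29.1% of the variance, set these libraries apart (replicate 3 of both groups), so results are given with and without them. In such bulk samples, fewer cells of a type and less RNA per cell cannot be told apart.

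Of 5 short motifs of known respiratory chain regulators, 2 were in a larger share of the promoters of these genes than of those of all genes tested. RefSeq (GRCm38.p6) gave 35 promoter windows, each from 250 bases before to 50 after a start site, for 33 of the 36 genes, with Ndufa2, Ndufb9 and Ndufs1 unmatched. The NRF1 half-site TGCGCA, which reads the same on both strands, was in 31.4% of the member windows, against 14.2% of the 11803 windows of genes tested and 7.76% of all 32851 windows. The YY1 site AAGATGGC, on either strand, was in 20.0% of the member windows, against 4.67% of those of tested genes and 2.75% of all. The ETS site CCGGAAG was in 11.4% of the member windows and 18.7% of those of tested genes, and the SP1 site GGGCGG in 45.7% and 61.9%, both on either strand. The ERR site TCAAGGTCA was in none of the 35, against 0.271% of those of tested genes. SP1 and ETS letters can overlap by shared cytosines or guanines. These are matches of letters and say nothing of binding.

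The windows of 5 members are shown: these are the 3 called members, Ndufb6 with the next highest fold change, and Ndufa9, whose groups did not overlap and which holds an NRF1 half-site. Ndufb6 and Ndufa9 were chosen after their values were seen. Only bases ahead of both the RefSeq start and the GENCODE M21 gene are shown, which leaves out 51 bases for Ndufv1 and 106 bases for Ndufs3. Capitals mark letters of the NRF1, YY1, ETS, SP1 and ERR motifs. The windows lie at chr19:4012807-4013005 (minus strand) for Ndufv1, chr2:90904828-90904971 (minus strand) for Ndufs3, chr6:39592315-39592564 (plus strand) for Ndufb2, chr4:40279422-40279671 (minus strand) for Ndufb6 and chr6:126849145-126849394 (minus strand) for Ndufa9, each read 5′ to 3′ on the strand of the gene.
Ndufv1: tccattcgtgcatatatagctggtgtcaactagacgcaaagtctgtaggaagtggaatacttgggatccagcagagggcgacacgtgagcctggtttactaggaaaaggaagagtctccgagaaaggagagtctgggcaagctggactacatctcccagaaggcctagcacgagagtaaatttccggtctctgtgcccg
Ndufs3: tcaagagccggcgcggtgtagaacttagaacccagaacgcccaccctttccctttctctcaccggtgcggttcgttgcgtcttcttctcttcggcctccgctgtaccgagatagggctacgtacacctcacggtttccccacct
Ndufb2: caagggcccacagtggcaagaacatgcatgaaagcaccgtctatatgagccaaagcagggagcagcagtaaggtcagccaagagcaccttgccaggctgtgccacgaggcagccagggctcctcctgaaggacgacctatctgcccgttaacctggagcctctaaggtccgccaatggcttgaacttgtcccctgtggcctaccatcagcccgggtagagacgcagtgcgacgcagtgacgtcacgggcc
Ndufb6: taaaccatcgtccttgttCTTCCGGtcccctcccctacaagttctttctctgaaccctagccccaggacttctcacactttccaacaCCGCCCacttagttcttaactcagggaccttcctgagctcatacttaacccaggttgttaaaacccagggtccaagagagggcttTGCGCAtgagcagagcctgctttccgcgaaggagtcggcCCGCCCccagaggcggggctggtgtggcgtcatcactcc
Ndufa9: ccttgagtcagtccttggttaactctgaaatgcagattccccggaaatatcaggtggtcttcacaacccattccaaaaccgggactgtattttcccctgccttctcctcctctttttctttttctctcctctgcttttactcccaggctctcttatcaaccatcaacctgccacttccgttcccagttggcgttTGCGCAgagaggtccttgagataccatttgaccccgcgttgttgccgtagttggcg
The 3 called members, Ndufv1, Ndufs3 and Ndufb2, held none of the motifs in the bases shown. Ndufb6 held an ETS site, an NRF1 half-site and a pair of SP1 sites, and Ndufa9 an NRF1 half-site. In the whole RefSeq windows, Ndufs3 also matched the ETS and SP1 sites and Ndufa9 the YY1 site.

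The 36 transcripts differed widely in level within a library. On the TPM scale, which corrects for gene length and allows genes to be compared, the highest member was 22.6 to 27.8 times the lowest in sgElovl1 libraries and 18.7 to 28.9 times in sgNT libraries. Ndufa1, a small accessory subunit encoded on the X chromosome, was the highest at 1468, 1370 and 1738 TPM in sgElovl1 and 1388, 1277 and 1651 TPM in sgNT. Its groups overlapped, and the third library was the highest of each.

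Ndufb8, an accessory subunit of the distal membrane arm, was next at 835, 832 and 1136 TPM in sgElovl1 and 848, 865 and 972 TPM in sgNT. Ndufb7, a twin-cysteine protein on the intermembrane side of the same arm, followed at 629, 657 and 760.2 TPM in sgElovl1 and 782, 818 and 844 TPM in sgNT. The Ndufb8 groups overlapped and the Ndufb7 groups did not, with sgElovl1 the lower. At the other end, Ndufs1, the largest core subunit and carrier of iron-sulfur clusters, had 59.1, 60.5 and 62.5 TPM in sgElovl1 and 71.3, 81.2 and 57.1 TPM in sgNT. Ndufb4 had 91.8, 85.5 and 103 TPM in sgElovl1 and 91.1, 68.4 and 77.7 TPM in sgNT. Ndufv1, the subunit that binds NADH and flavin, was between 108 and 118 TPM in sgElovl1 and between 136 and 156 TPM in sgNT. Ndufs1 and Ndufb4 overlapped between the groups, and Ndufv1 did not.

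Of the 35 pairs of neighbours in the order of mean TPM, 32 had ranges over the 6 libraries that overlapped, so the order is fixed only between distant members. By mean TPM, 31 of 36 exceeded 200 TPM in sgElovl1 and 29 of 36 in sgNT. The order of the genes in the groups had a Spearman rho of 0.906 across genes, a description over 36 genes that share libraries. Between the groups 10 of 36 differed by 4 or more places. Ndufb2 was 20th in sgElovl1 and 33rd in sgNT, and Ndufb6 was 17th and 28th, while Ndufa10 was 28th in sgElovl1 and 19th in sgNT.

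**Figure D1:**
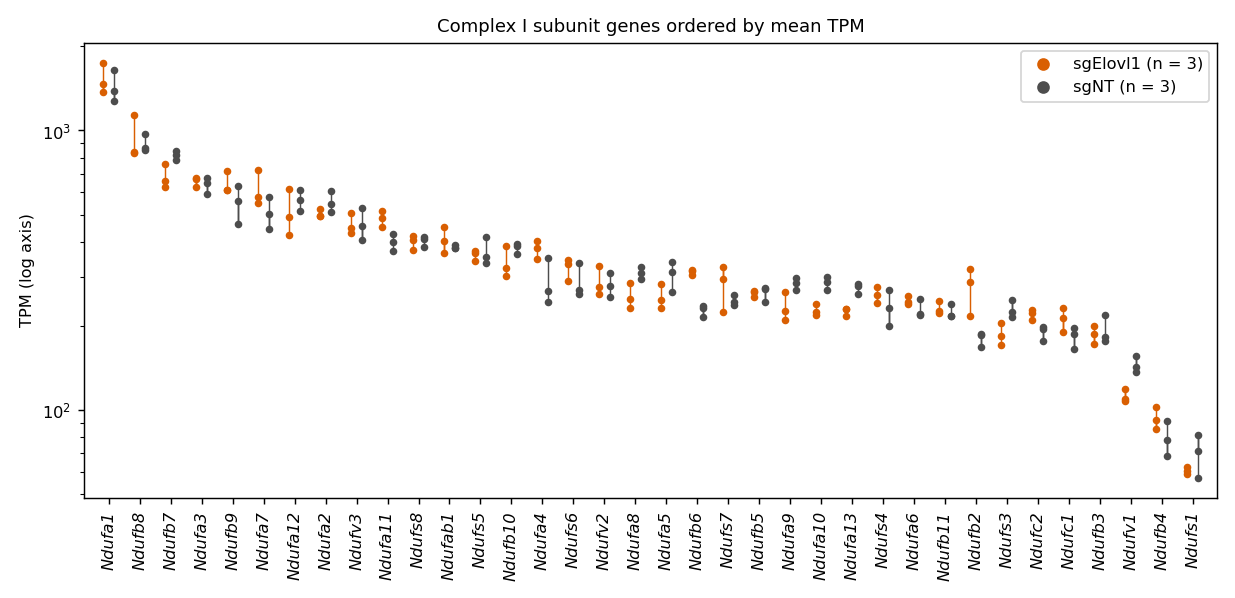
TPM of the 36 genes in each library on a log axis, ordered by the mean over 6 libraries, with sgElovl1 left of sgNT for each gene, points for libraries and lines joining the 3 libraries of a group. Ndufa1 stands above the rest at 1277 to 1738 TPM, Ndufs1 is lowest at 57.1 to 81.2 TPM, and most neighbours overlap.

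Few of these genes were called different between sgElovl1 and sgNT cells in the edgeR fit over all libraries, and a gene not called may still differ. In the edgeR quasi-likelihood test, 1 of 36 members was called higher in sgElovl1 (2.78% of members, against 8.64% of all genes tested) and 2 of 36 lower (5.56%, against 5.13%). The threshold was an adjusted p under 0.05 over all 12546 genes, of which 13.8% were called in either direction. In this fit the share of members called lower was near that of all genes, and the share called higher was below it. The median log2 fold change of the 36 was -0.05 (0.04 when scaled by library size alone), beside -0.0041 (0.09) for all genes tested, and 22 members were below 0 and 14 above. All but 1 of the 36 had changes under 0.5 on the log2 scale, and counts of 1045 to 9024 per gene and library put little counting error on them.

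Groups that did not overlap were more frequent than calls. The 3 sgElovl1 values all lay above the 3 sgNT values for 2 members (5.56%, against 19.4% of all genes tested) and all below for 9 members (25.0%, against 17.7%). The 9 lower ones were Ndufv1, Ndufs3, Ndufs1, Ndufa2, Ndufa8, Ndufa9, Ndufa10, Ndufa13 and Ndufb7, and 3 of these are among the 6 core genes. The 2 higher ones, Ndufb2 and Ndufb6, both belong to the distal membrane arm.

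**Figure D2:**
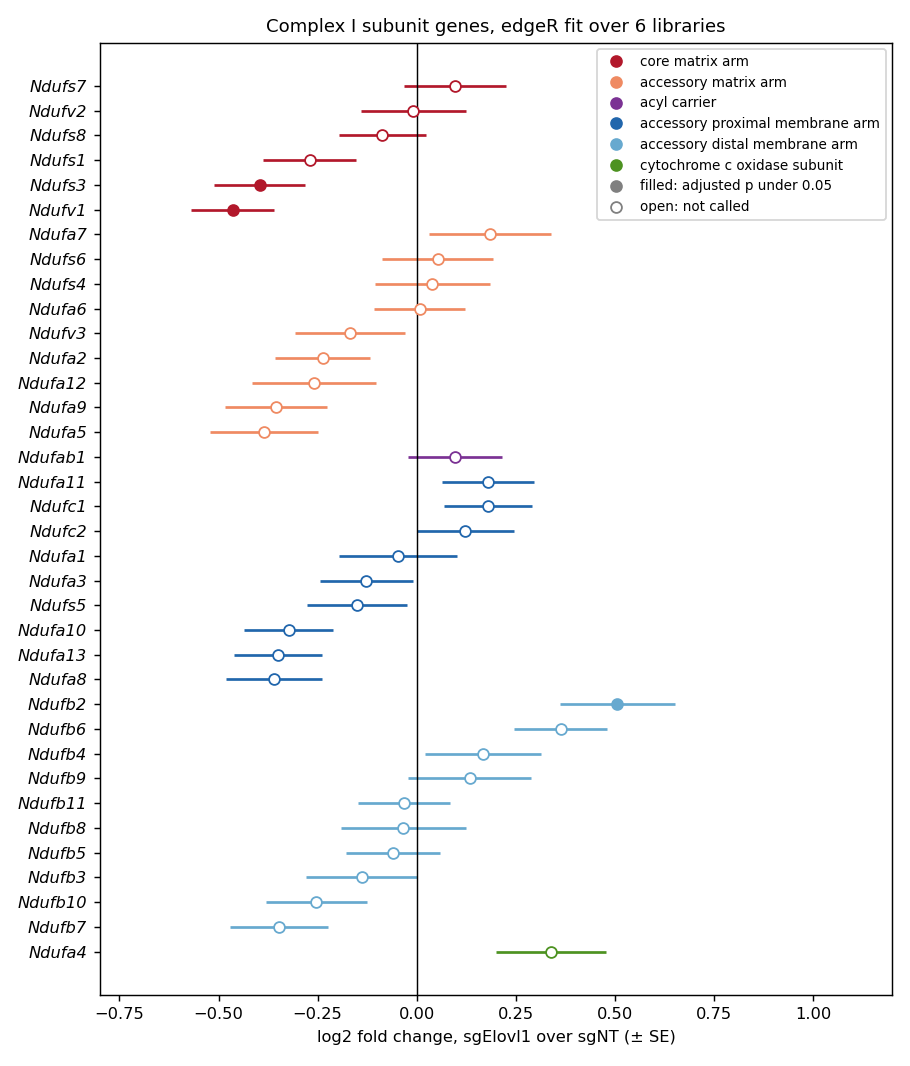
Log2 fold change of sgElovl1 over sgNT with its SE for each gene, grouped and coloured by place in the complex, filled where called. Ndufv1 (-0.46) and Ndufs3 (-0.40) are the filled points below 0 and Ndufb2 (0.51) the one above, while the accessory classes spread over both sides of 0.

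The results depended on which libraries were fitted. With the third library of both groups left out, 3 members were called higher (8.33%, against 15.4% of all genes in that fit) and 11 lower (30.6%, against 16.1%). The 11 were Ndufv1, Ndufs3, Ndufs1, Ndufa5, Ndufa8, Ndufa9, Ndufa10, Ndufa12, Ndufa13, Ndufb7 and Ndufb10, and the 3 were Ndufb2, Ndufb6 and Ndufa11. Without sgElovl1 replicate 3 alone, 10 were called lower (27.8%, against 10.1% of all genes in that fit) and 1 higher (2.78%, against 11.0%). Both of these fits kept only the pooled libraries of sgElovl1, replicates 1 and 2. The part of pooling in their spread and in these counts was not tested. Leaving out replicate 1 or 2 of sgElovl1, or replicate 2 of sgNT, none was called in either direction. In those 3 fits only 0.623%, 0.323% and 0.488% of all genes were called lower and 2.95%, 2.15% and 2.55% higher, so the absence of calls is no result about the members. Leaving out replicate 1 of sgNT, 1 was called lower and 1 higher (1.34% and 6.07% of all genes), and leaving out replicate 3 of sgNT, 1 lower and 2 higher (3.29% and 7.08%). DESeq2 on all 6 libraries called 7 lower and 2 higher, against 7.98% and 9.59% of the 13113 genes that it gave an adjusted p.

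The core subunits held both of the lower calls. Ndufv1 stood at 129, 137 and 133 CPM in sgElovl1, against 171, 190.4 and 189 CPM in sgNT. Every sgElovl1 library was below every sgNT library. The SD was 4.11 CPM in sgElovl1, where replicates 1 and 2 were pools, and 10.9 CPM in sgNT. It fell by 0.46 on the log2 scale (SE 0.105, edgeR adjusted p = 0.0177) and was called in 4 of the 7 fits that left out libraries. Leaving out replicate 1 or 2 of sgElovl1, or replicate 2 of sgNT, its adjusted p was 0.0808, 0.0880 and 0.0821 at log2 fold changes of -0.44, -0.49 and -0.42.

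Ndufs3, a core subunit of the module that binds ubiquinone and part of the earliest assembly intermediate, had 114, 117 and 136 CPM in sgElovl1, against 152, 164 and 167 CPM in sgNT. The groups did not overlap, and the third sgElovl1 library came nearest to sgNT. It fell by 0.40 (SE 0.114, edgeR adjusted p = 0.0414). That call was lost without any 1 of the other 5 libraries, at adjusted p of 0.0788 to 0.185, and held without sgElovl1 replicate 3. Ndufs1 had 119.9, 119 and 131 CPM in sgElovl1, against 146, 166 and 134 CPM in sgNT, a log2 fold change of -0.27 ± 0.117 that was not called (adjusted p = 0.137). The other 3 core genes lay close to 0. Ndufv2, which carries a cluster beside the flavin, had -0.0085 ± 0.132, Ndufs8 of the ubiquinone module -0.09 ± 0.110, and Ndufs7, which holds the last cluster before ubiquinone, 0.10 ± 0.129. Differences between the fold changes of these genes were not tested.

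**Figure D3:**
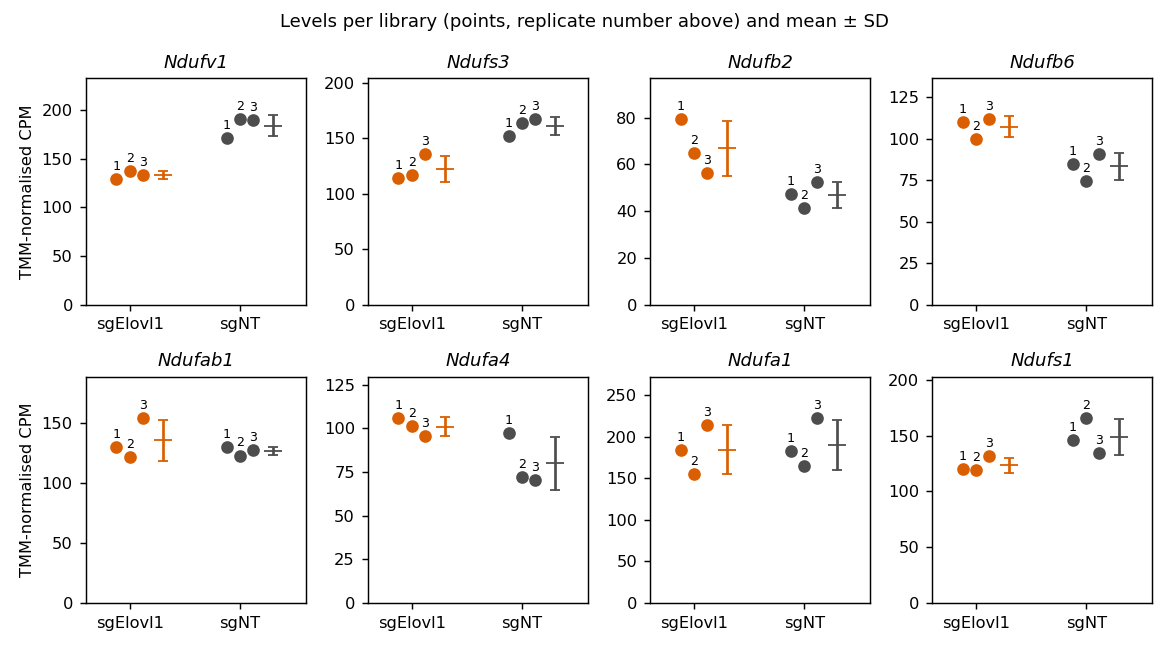
TMM-normalised CPM of 8 genes in each library, sgElovl1 left of sgNT, with points numbered by replicate and the mean ± SD beside them, axes from 0. Ndufv1, Ndufs3 and Ndufs1 are lower and Ndufb2 and Ndufb6 higher in every sgElovl1 library, while Ndufab1, Ndufa4 and Ndufa1 overlap between the groups.

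None of the 9 accessory matrix arm genes was called, and 4 of 9 log2 fold changes were above 0 (range -0.38 to 0.18, median -0.17). Ndufa5 had the lowest at -0.38 ± 0.136 (adjusted p = 0.0797), with 49.1 CPM in sgElovl1 replicate 3 just above 48.7 CPM in sgNT replicate 1. Ndufa9, which binds a nucleotide cofactor where the arms meet, had -0.35 ± 0.128 (adjusted p = 0.0853). Ndufa9 was at 222, 227 and 289 CPM in sgElovl1, against 297, 314 and 332 CPM in sgNT, with no overlap. Ndufa12, which takes the place of the assembly factor Ndufaf2, had -0.26 ± 0.156, Ndufa2 -0.24 ± 0.120 and Ndufv3 -0.17 ± 0.139. Ndufs4, whose loss in mice gives a model of Leigh syndrome, had 0.039 ± 0.145, the zinc-binding Ndufs6 0.054 ± 0.140, Ndufa6 0.0072 ± 0.114 and Ndufa7 0.18 ± 0.154. Ndufs4 and Ndufs6 thus differed from 0 by less than their SE.

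Ndufab1 links complex I to lipid metabolism, as it is also the acyl carrier protein of mitochondrial fatty acid synthesis. It had 130.3, 122 and 155 CPM in sgElovl1, against 130.1, 123 and 127 CPM in sgNT. The first 2 libraries of the groups were level, and only sgElovl1 replicate 3 stood above. Its log2 fold change was 0.097 ± 0.118 (adjusted p = 0.608). Ndufa6 and Ndufb9, which each bind an acyl carrier protein in the complex, had 0.0072 ± 0.114 and 0.13 ± 0.155, so neither was called.

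In the proximal membrane arm none of 9 genes was called, and the log2 fold changes ran from -0.36 to 0.18. Ndufa8, a twin-cysteine protein of the intermembrane side, had -0.36 ± 0.121 (adjusted p = 0.0694), Ndufa13, also known as GRIM-19, had -0.35 ± 0.111 (adjusted p = 0.0578), and Ndufa10, of the nucleoside kinase family, had -0.32 ± 0.112 (adjusted p = 0.0751). These 3 were the ones whose groups did not overlap. Ndufa13, nearest to the threshold, had 211, 190.2 and 218 CPM in sgElovl1, against 249, 258 and 281 CPM in sgNT. Ndufs5 had -0.15 ± 0.126, Ndufa3 -0.13 ± 0.117 and Ndufa1 -0.047 ± 0.149. Ndufc2 had 0.12 ± 0.123, and Ndufc1 and Ndufa11 both 0.18, with SE of 0.111 and 0.115.

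The distal membrane arm held the only higher call. Ndufb2 had 79.4, 64.9 and 56.2 CPM in sgElovl1, against 47.2, 41.4 and 52.6 CPM in sgNT. The groups did not overlap, but sgElovl1 replicate 3 lay close to sgNT replicate 3. It rose by 0.51 on the log2 scale (SE 0.146, edgeR adjusted p = 0.0425). With the replicate number as a block the adjusted p was 0.0554, and no member was then called higher (8.92% of all genes were) while the 2 lower calls stayed at 2 (4.44% of all genes were). Leaving out replicate 1 or 2 of sgElovl1, or replicate 1 or 2 of sgNT, its log2 fold change was 0.36, 0.53, 0.52 and 0.44 and its adjusted p 0.183, 0.138, 0.114 and 0.164.

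Ndufb6 was close behind, at 110.0, 100.1 and 112 CPM in sgElovl1, against 85.0, 74.5 and 90.7 CPM in sgNT. Its groups were apart by more than either SD, of 6.31 CPM in sgElovl1 and 8.21 CPM in sgNT. The log2 fold change of 0.36 ± 0.117 was not called (adjusted p = 0.0593), and it was called in 6 of 15 alternatives. In the same arm, Ndufb7 had the lowest value at -0.35 ± 0.124 (adjusted p = 0.0808) with 202, 197 and 248 CPM in sgElovl1, against 263, 264 and 297 CPM in sgNT. Ndufb10, its twin-cysteine relative, had -0.25 ± 0.127. The remaining Ndufb3, Ndufb4, Ndufb5, Ndufb8, Ndufb9 and Ndufb11 lay between -0.14 and 0.17 with adjusted p of 0.456 to 0.907.

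Copies of some of these genes limit the reading of their values. Ndufb4c, a copy of Ndufb4, was given 58.0, 50.7 and 58.2 TPM in sgElovl1 and 36.4, 31.8 and 25.3 TPM in sgNT. Reads of Ndufb4 may be split between them, so Ndufb4 is uncertain, and Ndufb4c itself had 0.70 ± 0.244 (adjusted p = 0.0755). Ndufb1-ps, listed in mouse as a pseudogene of a further subunit, was called higher at 0.55 ± 0.166 (adjusted p = 0.0492). It had 50.5, 38.0 and 33.9 CPM in sgElovl1, against 30.2, 23.2 and 30.0 CPM in sgNT. Ndufa4l2, a paralogue of Ndufa4 induced in hypoxia, was at or near 0 CPM in all 6 libraries.

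Ndufa4, the subunit now placed in cytochrome c oxidase, had 106, 101 and 95.4 CPM in sgElovl1, against 97.3, 71.8 and 70.3 CPM in sgNT. sgNT replicate 1 stood among the sgElovl1 values, so the groups overlapped. The log2 fold change was 0.34 ± 0.139 (adjusted p = 0.120), and without sgNT replicate 1 it was 0.52 (adjusted p = 0.0434). Among the 36 only Ndufb2 and Ndufb6 had a higher value.

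Library by library, the median of the 36 members varied more within a group than between the groups. Higher and lower members offset each other in such a median, so it does not describe single genes. Relative to each gene's own mean over 6 libraries, the median deviation of the 36 was -0.026, -0.14 and 0.066 on the log2 scale in sgElovl1 and -5.58e-05, -0.080 and 0.22 in sgNT. The third libraries were the highest of both groups, with 27 of 36 members above their own mean in sgElovl1 and 28 of 36 in sgNT. These are also the libraries with the most tumour epithelium marker RNA, at 315 and 980 CPM, and its part in the levels was not tested.

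Summed over the 36 genes, the level was 4770 ± 411 CPM in sgElovl1 and 5155 ± 422 CPM in sgNT (SD, n = 3 each), a difference smaller than either SD. On the TPM scale the sum was 13630 ± 826 in sgElovl1 and 13356 ± 809 in sgNT, so the sign of this small difference turned with the scale. The members held 1.31 to 1.46% of all TPM in sgElovl1 and 1.28 to 1.43% in sgNT. On TPM, 19 of 36 differences of means were above 0 (median 0.037 on the log2 scale).

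The mitochondrial genome encodes the other part of complex I, the core of the membrane arm, and most of its transcripts were called higher in sgElovl1. Of the 7 genes, 6 were tested, and 5 were called higher (83.3%, against 8.64% of all genes tested). mt-Nd1, which forms the ubiquinone site with the matrix arm, had 1103, 960 and 733 CPM in sgElovl1, against 413, 229.6 and 235 CPM in sgNT. Each sgElovl1 library was well above each sgNT library, with a log2 fold change of 1.67 ± 0.262 (adjusted p = 0.00859). mt-Nd2, mt-Nd4 and mt-Nd5, the proton pumps, rose by 1.63, 1.73 and 1.92, and mt-Nd3 by 2.93, with 13.6 ± 8.67 CPM in sgElovl1 and 1.78 ± 0.449 CPM in sgNT. mt-Nd6, the only one on the other strand, had 1.69 ± 0.486 (adjusted p = 0.0808), and mt-Nd4l was listed at 0 in 4 libraries and not tested.

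Summed, the 7 mitochondrial genes stood at 3265, 2845 and 1906 TPM in sgElovl1, against 1052, 612 and 537 TPM in sgNT. Set against the summed TPM of the nuclear genes, the ratio was 0.247, 0.218 and 0.131 in sgElovl1 and 0.0812, 0.0477 and 0.0376 in sgNT. The lowest sgElovl1 ratio was thus above the highest sgNT ratio, and replicate 3 of each group was its lowest. The count of called mitochondrial genes was 1 with the third libraries left out, 0 to 3 when replicate 1 or 2 of sgElovl1, or replicate 2 or 3 of sgNT, was left out, and 2 with no filter on low counts. Of all genes, 15.4%, 2.15% to 7.08% and 5.81% were called higher in those fits. The 6 nuclear retained long non-coding RNAs summed to 1516, 1829 and 2917 CPM in sgElovl1 and 1545, 492 and 754 CPM in sgNT, with 2 of the 4 tested called higher, and their part in the mitochondrial values was not tested.

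**Figure D4:**
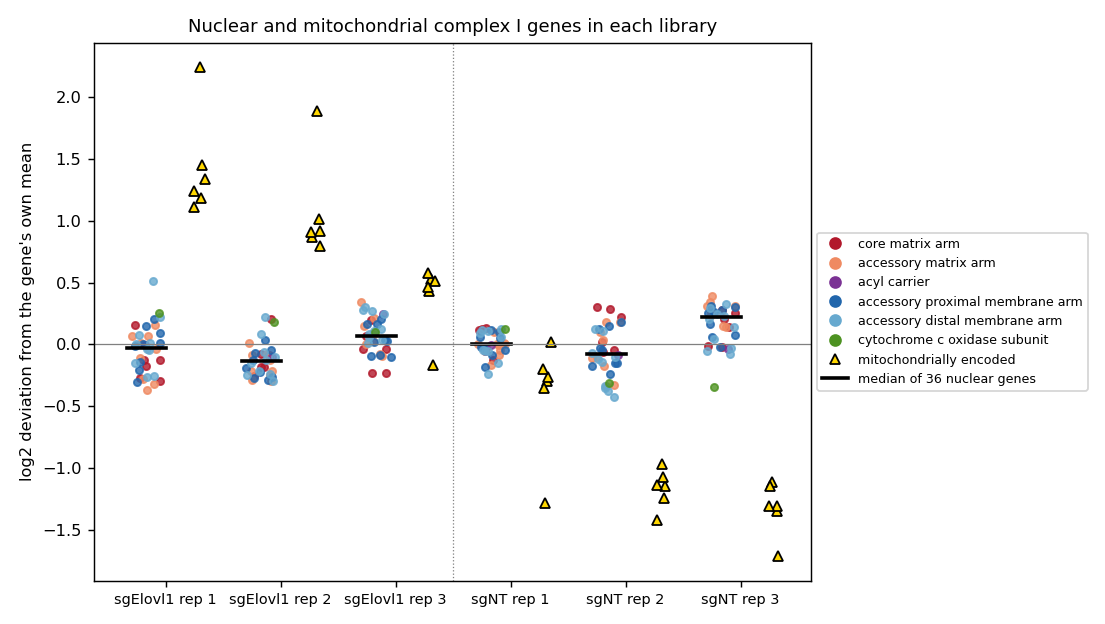
Deviation of each gene from its own mean over the 6 libraries on the log2 scale, with circles for the 36 nuclear genes, bars for their median and triangles for the 6 tested mitochondrial genes, sgElovl1 libraries left of sgNT. The nuclear medians lie between -0.14 and 0.22 in all libraries, while the mitochondrial medians are 0.488 to 1.29 in sgElovl1 and -1.31 to -0.284 in sgNT.

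Complex I is put together by assembly factors that are not part of the finished enzyme. Of 19 tested, 0 were called higher and 4 lower (21.1%, against 5.13% of all genes), 15 of 19 were below 0, and the median log2 fold change was -0.14. Ndufaf1 and Ecsit, with Acad9 part of the assembly complex of the membrane arm, had -0.45 ± 0.126 (adjusted p = 0.0389) and -0.37 ± 0.112 (adjusted p = 0.0498). Acad9 had -0.39 ± 0.111 (adjusted p = 0.0412), and Ndufaf3, which acts with Ndufaf4 on the ubiquinone module, -0.37 ± 0.112 (adjusted p = 0.0482). All 4 were close to the threshold, and they were at 36.3, 57.8, 35.8 and 46.0 CPM on average in sgElovl1, against 49.4, 74.7, 46.7 and 59.6 CPM in sgNT, for Ndufaf1, Ecsit, Acad9 and Ndufaf3. The count of lower calls was 8 without the third libraries, 1 with the replicate block and 0 with a length offset. Of all genes, 16.1%, 4.44% and 3.48% were called lower in those fits.

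The other complexes gave counts like those of complex I. Of 39 nuclear genes of complexes II to V tested, 1 was called higher and 2 lower. That is 7.69% in either direction, against 13.8% of all genes (8.64% higher and 5.13% lower). The median log2 fold change was -0.09 and 28 of 39 were below 0. Uqcrq, an accessory subunit of complex III, rose by 0.58 (SE 0.158, adjusted p = 0.0353), Sdhc, a membrane anchor of complex II, fell by 0.47 (SE 0.122, adjusted p = 0.0301), and Atp5b, the catalytic subunit of ATP synthase, fell by 0.44 (SE 0.131, adjusted p = 0.0493). Of 11 tested regulators of respiratory chain genes, 0 were called in either direction in the main edgeR fit or in DESeq2. In limma-voom 1 was called, and 3 had an unadjusted p under 0.05 in the main edgeR fit. Some other edgeR fits called regulators, as given below. Those with the smallest p were Pprc1, a PGC-1 related coactivator, at 0.50 ± 0.157 (adjusted p = 0.0551), and Esrra, an orphan nuclear receptor, at 0.57 ± 0.209 (adjusted p = 0.0885). Nrf1 and Yy1, whose motifs recurred in the promoters, had -0.070 ± 0.126 and -0.46 ± 0.169 (adjusted p = 0.739 and 0.0906).

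By correlation, fold changes rose with gene length over all genes and fell with it among the members. Mean gene lengths of the 36 ran from 372 to 2420 bases, with a median of 668 bases, against 2169 bases for all genes tested. With all genes split by length into 10 bins of equal size, the median log2 fold change was -0.04 in bin 1, the shortest, -0.15 and -0.19 in bins 2 and 3, and 0.37 in bin 10. Members fell in 4 bins: 28 in bin 1, at a median of -0.03, 5 in bin 2 at -0.32, 2 in bin 3 at -0.41 and 1, Ndufs1, in bin 6 at -0.27. Among members longer than 900 bases 8 of 9 were below 0, and among the shorter 27 it was 14. Across the 36 genes Pearson's r of log2 fold change with log2 length was -0.41 and Spearman's rho was -0.38. Over all genes tested they were 0.17 and 0.30. Genes share all 6 libraries and are not independent.

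With an offset for gene length in the edgeR fit, 2 members were called higher (5.56%, against 5.75% of all genes) and 0 lower (0 of 36, against 3.48%). The higher ones were Ndufb2 and, at an adjusted p of 0.0351, Ndufb6. Ndufv1 had -0.32 (adjusted p = 0.0691) and Ndufs3 -0.29 (adjusted p = 0.0987) in that fit. Neither lower call held with the offset, whereas Ndufb2 was called with and without it. The offset follows the trend with length in each library and so also takes out any group difference that runs with length. The loss of the lower calls therefore does not decide whether these genes differ between the groups.

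**Figure D5:**
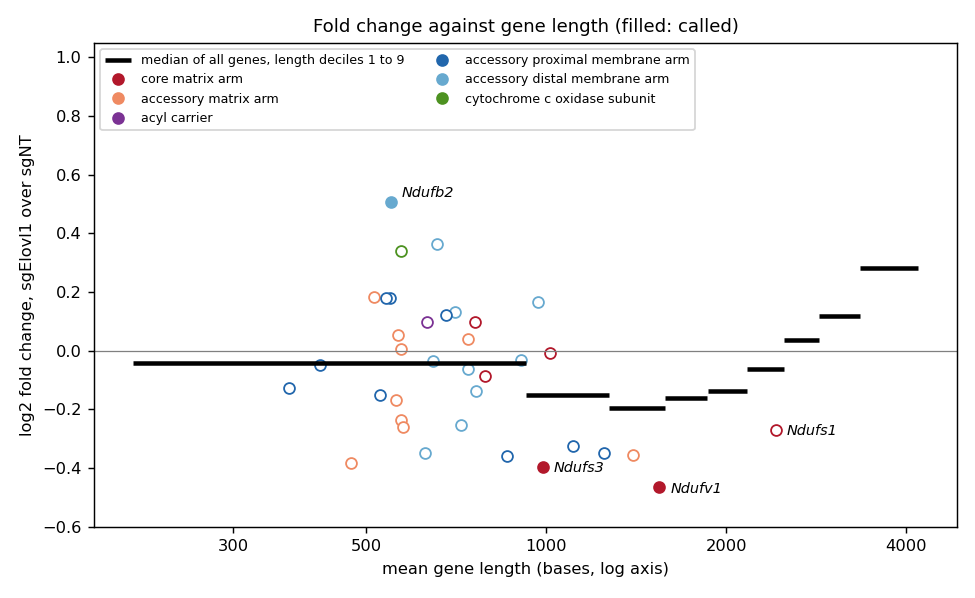
Log2 fold change of sgElovl1 over sgNT against mean gene length in bases on a log axis, with circles for the 36 genes coloured by place in the complex and filled where called, and bars for the median of all genes in length bins 1 to 9. The called Ndufs3 and Ndufv1 lie in bins 2 and 3, where all genes have medians of -0.15 and -0.19, and Ndufb2 lies in bin 1.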

How the data were processed

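The submitters' processing notes name STAR 2.7.7a, RSEM 1.3.1 and mm10, and the study's methods describe SMARTer pre-amplified cDNA. The deposited tables hold expected counts, which RSEM estimates per gene without scaling between libraries, and which were rounded for the tests. They also hold TPM, which the authors' RSEM run scaled by effective length to a fixed total, used for levels between genes, and mean gene lengths. Symbols and gene spans came from GENCODE M21 (GRCm38, 55144 of 55471 IDs matched) and promoters from RefSeq. The annotation release is not given in the sources used here.

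edgeR 4.0.16 (R 4.3.3) was run with filterByExpr (minimum count 10), TMM and robust quasi-likelihood fits on the group alone. The test was two-sided, with Benjamini-Hochberg adjustment over 12546 genes and a threshold of 0.05, and was checked on simulated counts. Per-gene CPM carry the TMM factors. P-values measure the spread between these 6 libraries, 2 of which were pools. Depth was 21980273 to 26165380 expected counts, and no libraries were identical. Same-numbered libraries, by the numbers in the titles, deviated together (r = 0.212, 0.245 and 0.405). So did sgElovl1 replicate 1 with sgNT replicate 2 (r = 0.169) and sgElovl1 replicate 2 with sgNT replicate 1 (r = 0.107). Replicate 3 of a group had r of -0.294 to -0.233 with replicates 1 and 2 of the other. These values set replicate 3 apart and do not show that replicates 1 and 2 were paired. The replicate number was also fitted as a block. Other fits used RLE factors, library size alone, no filter, DESeq2 1.42.0, limma 3.58.1 voom, a length offset, and libraries left out.

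The members and gene lists were chosen with earlier results of these data known. Values per library are given for members called in the main or in at least 4 of 7 left-out fits, the 3 highest and lowest by TPM, the largest change each way, Ndufa4 and Ndufab1. Of each list, called genes and the 2 with the smallest p are named. Other genes given per library were chosen after their values were seen. Ndufb4 and its copy were kept as counted.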

Additional observations from a re-analysis of the deposited data

How the results depend on the processing

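Over 15 alternatives, 25 of the 36 members kept the sign of their log2 fold change and 11 did not, none of them called. The median of the members, -0.05, ranged from -0.14 without sgElovl1 replicate 3 to 0.04 with library size alone, so its sign was not fixed. Elovl1 stayed called, between -1.83 and -1.54.

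The 36 members gave 1 higher and 2 lower calls, and the following counts otherwise: 2 and 1 with library size alone, which shifted the median of all genes to 0.09 and the share of higher among all calls to 84.5%, against 62.8%; 2 and 2 with no filter; 2 and 7 with DESeq2; 0 and 2 with the replicate block; 2 and 0 with a length offset; 1 and 0 with the length offset and replicate block; and 3 and 11 without the third libraries. RLE factors and limma-voom left 1 and 2. Leaving out 1 library at a time gave 0 to 2 higher and 0 to 10 lower. The replicate block changed no other member's call. Over all genes, higher calls ranged from 279 to 1947 (2.15% to 15.4%) and lower calls from 42 to 2039 (0.323% to 16.1%). Of all genes, 11.2% were called higher and 2.06% lower with library size alone, and 5.81% and 2.91% with no filter. The shares were 8.92% and 4.44% with the replicate block, 5.75% and 3.48% with the length offset, and 9.59% and 7.98% with DESeq2. Without the third libraries they were 15.4% and 16.1%. Counts here and for the lists below are to be read beside these shares.

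Mitochondrial genes called higher were 2 with no filter and 1 without the third libraries, and 0 to 5 leaving out 1 library. Assembly factors called lower were 0 with library size alone, with the length offset and with both length offset and replicate block, 1 with no filter and with the replicate block, 8 without the third libraries, and 0 to 6 leaving out 1 library. Complexes II to V gave 3 higher and 0 lower with library size alone, 2 and 1 with no filter, 3 and 5 with DESeq2, 2 higher with limma-voom, 2 and 1 with the replicate block, 2 and 0 with the length offset, 3 and 0 with length offset and replicate block, 2 and 9 without the third libraries, and 0 to 2 and 0 to 7 leaving out 1 library. Regulators gave 1 higher with library size alone and with limma-voom, 1 lower with the length offset with or without the block, 3 higher and 2 lower without the third libraries, and 0 to 1 higher leaving out 1 library.

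Values whose sign turned were small on the log2 scale. With library size alone they were 0.049 for Ndufa1, 0.037 for Ndufb5, 0.060 for Ndufb8, 0.063 for Ndufb11, 0.0091 for Ndufs8 and 0.087 for Ndufv2. Ndufa6 was -0.0038 with DESeq2 and -0.00039 with the length offset, where Ndufb11 was 0.051 and Ndufv2 0.10, the same as with the block added. Ndufv2 was 0.0068 with no filter, and Ndufab1 -0.0078 without the third libraries. Leaving out 1 library, the range was -0.17 to 0.094 for Ndufa1, -0.032 to 0.096 for Ndufa6, -0.0094 to 0.17 for Ndufab1, -0.22 to 0.015 for Ndufb3, -0.13 to 0.0080 for Ndufb5, -0.22 to 0.095 for Ndufb8, -0.11 to 0.028 for Ndufb11, -0.084 to 0.19 for Ndufs4, -0.013 to 0.22 for Ndufs6 and -0.12 to 0.11 for Ndufv2.

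The causes of these changes were not tested. Fits that leave out a library have 2 in one group, whose spread is estimated from all genes and libraries. Counts of 1045 or more per member and library make depth no limit here, while 3 libraries a group are one.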
